A study of Citrus sinensis with 30 samples.

Results

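The change of gene expression between 15 and 30 days after storage (DAS) was described in juice sacs of ‘Tarocco’ blood orange (TBO), a pigmented variety of Citrus sinensis. The members are the 6 RNA-seq libraries of TBO fruit at these days, 3 at 15 DAS and 3 at 30 DAS, out of 30 libraries in all, and every expressed gene in them. The whole series covers 2 varieties, TBO and ‘Bingtangcheng’ sweet orange (BTSO), each sampled before storage (0 DAS) and on days 15, 30, 60 and 90 with 3 libraries per group. All groups share the same tissue, and the groups after 0 DAS the same storage, in individual polyethylene bags in a temperature-controlled chamber. A storage day was thus compared with an earlier storage day and not with unstored fruit of the same age. The labels name the 3 libraries of a group biological replicates. The methods state that juice sacs came from several fruit per group without saying how these fruit were divided over replicates, so the p-values measure the spread between these samples.

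Juice sacs are the multicellular vesicles of the citrus pulp, whose cells store sugars, citrate and, in blood orange, anthocyanins in their vacuoles. Detached fruit live on these reserves: sucrose is split by invertases and hexoses enter glycolysis, while water loss and ageing engage abscisic acid and ethylene signalling. Abscisic acid is made from carotenoids, and its rate-limiting step is the cleavage by 9-cis-epoxycarotenoid dioxygenase.

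Expression is given as FPKM, fragment counts scaled by transcript length and by the mapped fragments of the library. Differences are given on the log2(FPKM + 1) scale, which understates the change of genes with a low FPKM, and always as 30 DAS minus 15 DAS. Tests by limma covered the 16578 of 24179 genes that reached an FPKM of 1 in 3 or more of the 30 libraries, and a gene was called where the Benjamini-Hochberg adjusted p was under 0.05 and the difference was over 1 in either direction. Every adjusted p below comes from this fit over all tested genes unless another tool is named.

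Total estimated counts per library ranged from 65031622 to 67586854 at 15 DAS and from 51894138 to 70093497 at 30 DAS (exact permutation test, two-sided p = 0.5; 0.1 is the smallest p that 3 against 3 libraries allow). Between 14480 and 14657 genes reached an FPKM of 1 at 15 DAS, and between 14648 and 14820 at 30 DAS (exact p = 0.2). Libraries of the same day correlated across genes with r from 0.978 to 0.985, and libraries of different days with r from 0.964 to 0.971. Markers of other tissues were detected in all 6 libraries at levels that overlapped between the days: the summed FPKM of 13 green-tissue genes was 97.9 to 123 at 15 DAS and 90.1 to 109 at 30 DAS, that of 10 seed genes 31.1 to 35.0 and 34.8 to 40.8, that of 4 vascular genes 9.99 to 15.0 and 11.2 to 30.2, and that of 19 decay or wounding genes 853 to 1058 and 907 to 1150. Of these markers 1 was called, the glucanase Cs8g14950 described below, and the part of other tissues in the results was not tested.

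Between 15 and 30 DAS, 300 genes were called, which is 1.81% of the tested genes. Of these, 207 were higher at 30 DAS (1.25%) and 93 were lower (0.561%). The median difference was 1.22 among the former and -1.23 among the latter, against -0.02 over all tested genes. With the adjusted p alone, 3330 genes differed (20.1%), 1644 higher (9.92%) and 1686 lower (10.2%), so the excess of rises appears with the limit on size. The libraries of both days did not overlap for 293 of the 300 called genes, against 42.6% of all tested genes. On the log2(FPKM + 1) scale, 12 of the risen and 5 of the fallen genes differed by more than 2. Of the 300 called genes, 247 carried a description in the table, 129 of them as a hypothetical or uncharacterized protein, which are described here by their Gene Ontology terms. The table gave coordinates for 22 of the called genes.

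**Figure D1:**
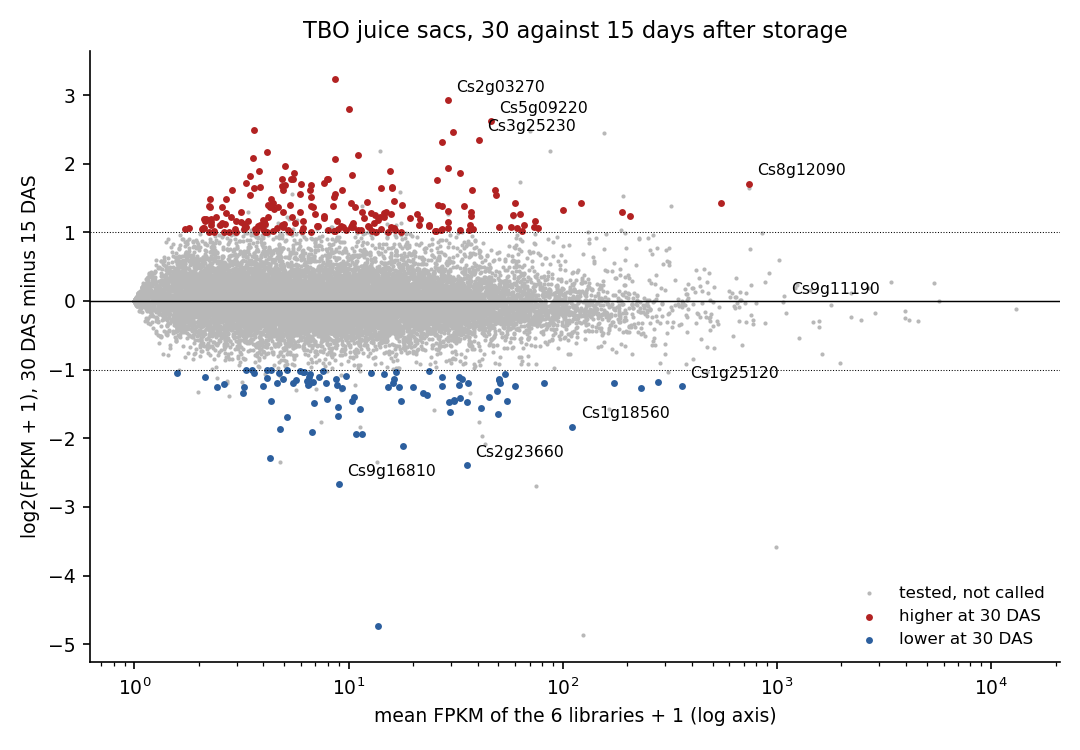
Difference between 30 and 15 DAS in TBO on the log2(FPKM + 1) scale (y axis) against the mean FPKM of the 6 libraries plus 1 (x axis, log scale) for the 16578 tested genes. Red points are the 207 genes called higher, blue points the 93 called lower, grey points were not called, and dotted lines mark the limit of 1.

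A gene of abscisic acid synthesis was among those with the largest rise. Cs2g03270, annotated with 9-cis-epoxycarotenoid dioxygenase activity and abscisic acid biosynthesis, had an FPKM of 4.68, 5.83 and 5.91 at 15 DAS, and 15 days later of 38.0, 75.9 and 38.6. All 3 libraries at 30 DAS lay far above those at 15 DAS, with a difference of 2.93 ± 0.44 (SE; adjusted p = 5.43e-05). Of 54 tested genes of abscisic acid and carotenoid metabolism, 3 rose and 1 fell (7.41% called against 1.81% of all tested genes). The median was -0.10, and 2 in all were called without replicate 3 of 15 DAS. The fall was that of Cs7g14820, a carotenoid cleavage dioxygenase 4, an enzyme of carotenoid breakdown, from 3.89 ± 0.117 to 1.37 ± 0.177 FPKM (mean ± SD, n = 3; difference -1.05, adjusted p = 0.000439).

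Some genes of the bZIP and LOB families of transcription factors were called, all of them as higher. As 0.561% of all tested genes were called lower, the lack of lower calls in lists this small says little. Of 7 tested genes described as bZIP factors, 4 rose and none fell, and all 4 are described as bZIP transcription factor 53, which in Arabidopsis acts with other bZIP factors on genes of amino acid metabolism. This list, like those of the LOB factors, of brassinosteroids and gibberellins, of photosynthesis and of sulfur assimilation, was added after values had been seen, so its count describes these libraries only. Cs3g25230 was expressed at 12.6, 12.8 and 11.1 FPKM at 15 DAS and at 56.9, 82.0 and 61.1 at 30 DAS. The days did not overlap, and the difference was 2.35 ± 0.20 (adjusted p = 6.32e-08). The most expressed of the 4, orange1.1t01674, rose from 45.6 ± 3.87 to 98.5 ± 17.8 FPKM (difference 1.08, adjusted p = 1.75e-05), Cs8g07470 from 3.57 to 8.70 (1.09, adjusted p = 0.000134) and Cs1g21370 from 1.05 to 3.75 (1.17, adjusted p = 0.00282). Without replicate 2 of 30 DAS, orange1.1t01674 and Cs1g21370 fell below the limit on size with differences of 0.94 and 0.95. The 3 other bZIP genes were not called, namely bZIP 43-like Cs3g16310 at 0.80, basic leucine zipper 9 Cs7g07550 at -0.18 and bZIP 17-like Cs6g16800 at -0.18.

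Genes with a role in proline and branched-chain amino acid metabolism were also called, and those named here were chosen after their values had been seen. Members of these pathways were not counted as a list, so the share that rose is not given. A link to the bZIP factors was not tested. Cs6g19180, a proline dehydrogenase of mitochondria that starts proline breakdown, was at 0.517, 1.82 and 2.21 FPKM at 15 DAS and at 4.76, 9.55 and 8.0 at 30 DAS. The lowest library at 30 DAS was above the highest at 15 DAS (difference 1.77 ± 0.25, adjusted p = 2.33e-05). Cs3g16440, a chloroplast branched-chain-amino-acid aminotransferase, rose from 7.17 ± 0.217 to 17.1 ± 2.85 FPKM (1.13, adjusted p = 0.00305).

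Of 7 tested LOB domain factors, plant-specific regulators of organ boundaries and metabolism, 3 rose and none was called lower. Cs8g17160, LOB domain-containing protein 1-like, had 2.21, 2.15 and 2.54 FPKM on the earlier day and 11.5, 16.0 and 11.5 on the later one, without overlap (2.07 ± 0.29, adjusted p = 2.05e-05). Cs1g21830, described as LOB domain-containing protein 38, rose from 1.81 to 8.19 FPKM (1.70, adjusted p = 8.2e-06), and Cs7g27640, LOB domain-containing protein 1, from 35.6 to 76.4 (1.08, adjusted p = 0.00443). The most expressed member, LOB domain-containing protein 40 Cs6g18700, went the other way from 264 to 154 FPKM, a difference of -0.78 that was within the limit on size (adjusted p = 0.00911).

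Ethylene-related genes were called in both directions. Of 103 tested genes, 6 were higher and 3 lower (8.74% called against 1.81% of all tested genes, median 0.09). Without replicate 1 of 15 DAS, 5 of them were called in place of 9. The ethylene-responsive factor ERF061, Cs5g02340, was at 4.29, 5.34 and 6.77 FPKM at 15 DAS and at 15.7, 28.0 and 27.2 at 30 DAS. Every library at 30 DAS lay above those at 15 DAS (1.90 ± 0.38, adjusted p = 0.000996). ERF 1A, Cs5g08360, rose from 1.34 to 6.43 FPKM (1.67, adjusted p = 8.2e-06). In contrast, Cs2g23660, annotated with ethylene signalling and negative regulation of transcription, was at 84.8, 29.2 and 64.5 FPKM at 15 DAS and at 7.99, 10.5 and 10.5 at 30 DAS. Replicate 2 of 15 DAS was the lowest of its day but still above all libraries at 30 DAS (-2.39 ± 0.30, adjusted p = 8.92e-06).

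Of 46 genes of brassinosteroid and gibberellin synthesis or signalling, 5 were called higher and none lower (10.9% called against 1.81% of all tested genes, median 0.06). This list was added after values had been seen, so its share describes these libraries only. Cs1g18360 and Cs1g24010 are also on the cytochrome P450 list. Cs1g18360, a cytochrome P450 of brassinosteroid synthesis described as 3-epi-6-deoxocathasterone 23-monooxygenase, had 17.0, 19.0 and 16.9 FPKM at 15 DAS and 38.8, 72.8 and 37.7 at 30 DAS, without overlap (1.38 ± 0.28, adjusted p = 0.00097). Cs1g24010, annotated with brassinosteroid biosynthesis, rose from 0.829 to 4.86 FPKM (1.66, adjusted p = 2.88e-05), and BIM1 Cs7g25850, a bHLH factor of brassinosteroid signalling in Arabidopsis, from 31.1 ± 1.64 to 86.0 ± 8.32 (1.43, adjusted p = 5.54e-07). Among auxin genes 2 of 109 rose and 1 fell, a share of 2.75% that is near the 1.81% of all tested genes. Of these, Cs3g27810, annotated with auxin transport, rose from 10.6 to 39.3 FPKM (1.76, adjusted p = 9.07e-06), and the auxin-responsive repressor IAA1, Cs1g13960, fell from 11.5 to 4.23 (-1.23, adjusted p = 5.44e-05).

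Of 73 tested enzyme genes of sucrose, starch, raffinose and trehalose, 4 rose and none fell (5.48% called against 1.81% of all tested genes). The median was 0.09, and 7 were called without replicate 1 of 30 DAS. The acid invertase Cs5g09220, which splits sucrose in the vacuole or cell wall, was at 12.1, 12.8 and 8.36 FPKM at 15 DAS and at 43.3, 124 and 70.7 at 30 DAS. The libraries at 30 DAS differed among themselves by more than those at 15 DAS, but all 3 lay above them (2.62 ± 0.41, adjusted p = 7.8e-05). Cs4g07840, a galactinol-sucrose galactosyltransferase that makes raffinose, was at 2.45, 3.27 and 3.29 FPKM and then at 11.6, 25.8 and 14.3, again without overlap (2.12 ± 0.33, adjusted p = 7.14e-05). A second enzyme of this kind, Cs9g12460, rose from 48.6 ± 10.1 to 102 ± 4.78 FPKM (1.07, adjusted p = 2.15e-05), and to 0.92 without replicate 2 of 15 DAS. The trehalose-phosphate phosphatase F gene Cs5g09200 rose from 2.77 to 7.48 FPKM (1.17, adjusted p = 6.05e-05), whereas the J form Cs1g01330 was at 3.98 and 3.78 (-0.07, adjusted p = 0.87).

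In glycolysis and fermentation, 2 of 63 genes rose and 1 fell (4.76% called against 1.81% of all tested genes, median -0.12). Without replicate 2 of 30 DAS, 1 in all was called. The fructokinase-annotated Cs5g22910;Cs5g22920, which feeds fructose into glycolysis, rose from 17.6 to 38.6 FPKM (1.07, adjusted p = 0.000862; 0.93 without replicate 2 of 30 DAS). Cs3g27840, annotated as the alpha subunit of the pyrophosphate-dependent phosphofructokinase, fell from 249, 256 and 215 FPKM to 117, 95.7 and 100. The days did not overlap (-1.19 ± 0.22, adjusted p = 0.00047). The sugar transporter SWEET1, Cs3g20720, was the 1 gene that limma called of 34 sugar transporters (2.94%). By edgeR 1 was called higher and 2 lower, and by DESeq2 2 and 2. SWEET1 rose from 2.95 to 7.30 FPKM (1.07, adjusted p = 0.00011), with 0.95 without replicate 2 of 30 DAS and 0.97 without replicate 3 of 15 DAS.

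**Figure D2:**
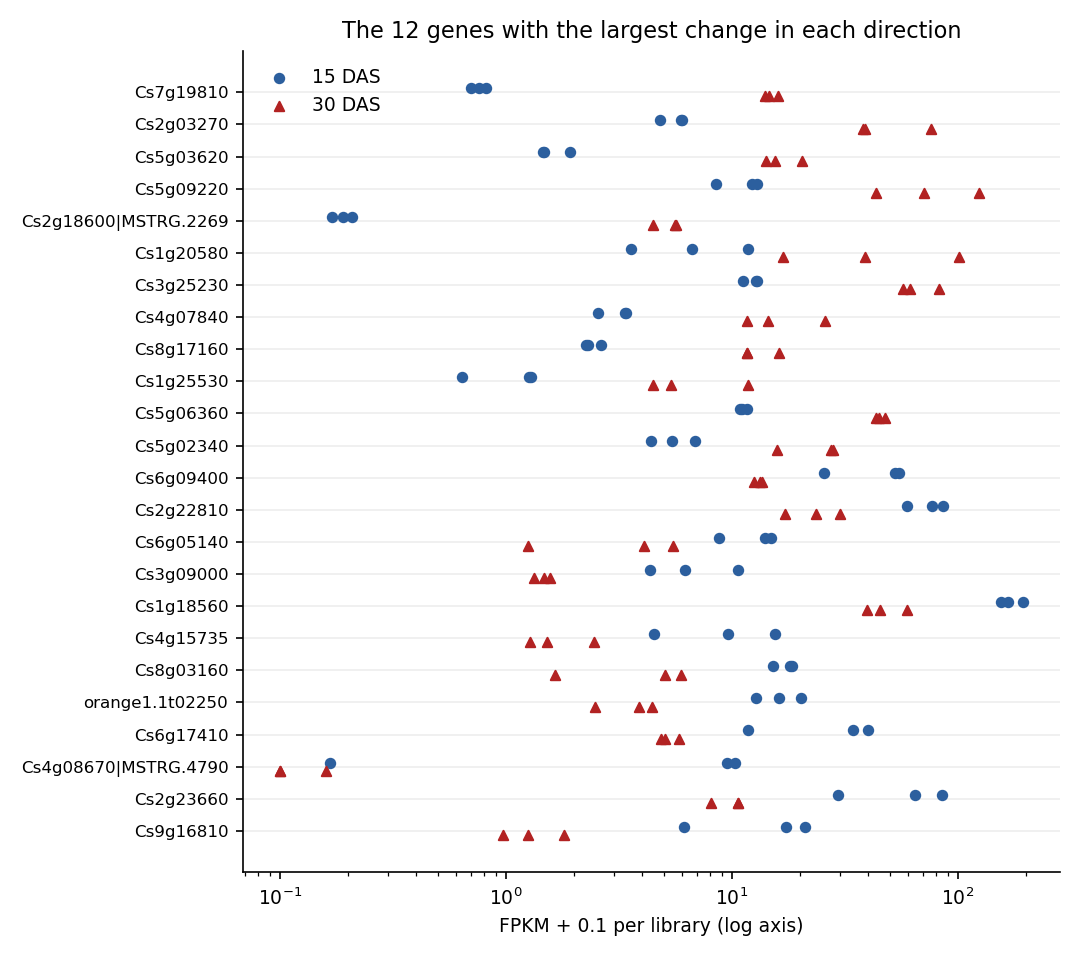
FPKM plus 0.1 in each library (x axis, log scale) of the 12 genes with the largest rise and the 12 with the largest fall among the called genes that carry a description, do not overlap and reach a mean of 5 FPKM. Blue circles are the 3 libraries at 15 DAS and red triangles the 3 at 30 DAS; in Cs4g08670|MSTRG.4790 replicate 2 of 15 DAS sits beside the libraries of 30 DAS.

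Other genes with a large rise included Cs7g19810, the dual specificity phosphatase PHS1, which acts on microtubules in Arabidopsis. It was at 0.717, 0.602 and 0.66 FPKM at 15 DAS and at 15.8, 13.9 and 14.4 at 30 DAS, which made it the gene with the largest rise among those named by the rule (3.24 ± 0.55, adjusted p = 0.000197). Cs5g03620, annotated as a GTPase and structural part of microtubules, rose from 1.51 ± 0.26 to 16.6 ± 3.18 FPKM (2.79, adjusted p = 2.51e-08). The mannitol dehydrogenase Cs1g20580 was at 3.47, 6.56 and 11.7 FPKM and then at 101, 16.7 and 38.6, a rise of 2.46 (adjusted p = 0.00653) that was 1.81 with an adjusted p of 0.0539 without replicate 1 of 30 DAS. Cs2g18600|MSTRG.2269, a hypothetical protein, went from 0.0895 to 5.12 FPKM (2.49, adjusted p = 0.00403).

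Among highly expressed genes, a pair was chosen after their values had been seen. The release factor subunit eRF1-3, Cs8g12090, which ends translation at stop codons, was at 335, 342 and 365 FPKM at 15 DAS and at 1076, 1200 and 1133 at 30 DAS. No library of a day came near those of the other (1.71 ± 0.09, adjusted p = 3.69e-11). The S-adenosylmethionine decarboxylase gene Cs6g19205;Cs6g19210, an enzyme of polyamine synthesis, rose from 108 ± 10.9 to 266 ± 26.1 FPKM (1.3, adjusted p = 1.74e-07).

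Of 133 cytochrome P450 genes, 8 rose and none fell (6.02% called), with CYP71A1-like Cs5g06360 going from 11.6, 11 and 10.7 to 44.6, 47.6 and 43.1 FPKM (1.93 ± 0.24, adjusted p = 8.51e-06). Of 94 glycosyltransferases of the UGT family, 2 rose and 3 fell (5.32% called against 1.81% of all tested genes). Of 39 pathogenesis-related genes 3 rose (7.69% called). Thaumatin-like Cs1g25530 rose from 0.964 to 7.10 FPKM (1.96, adjusted p = 0.000147) and thaumatin-like Cs5g10550 from 36.4 to 87.6 (1.26, adjusted p = 0.00603). The glucan endo-1,3-beta-glucosidase Cs8g14950 rose from 65.0 ± 7.58 to 176 ± 9.30 (1.43, adjusted p = 5.37e-05). Of 105 ABC and MATE transporters 4 rose (3.81% called), among them DETOXIFICATION 48, Cs3g16650, from 2.60 to 10.8 FPKM (1.72, adjusted p = 3.86e-06). Of these transporters, 2 were called when any library but replicate 1 of 30 DAS was left out. Among the jasmonate and lipoxygenase genes, Cs3g13930, annotated with 9S-lipoxygenase activity, rose from 2.54 to 11.3 FPKM (1.78, adjusted p = 0.00413).

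Cell wall genes moved in both directions. Cellulose synthase-like G3, Cs5g01970, was at 21.6, 24.9 and 21.6 FPKM at 15 DAS and at 64.1, 89.8 and 62.4 at 30 DAS (1.61 ± 0.21, adjusted p = 9.5e-06), and polygalacturonase Cs2g27910, which cuts pectin, rose from 1.27 to 5.39 (1.49, adjusted p = 0.000155). Cs7g03630, annotated with cell wall loosening, fell from 41.2, 50.9 and 33.8 FPKM to 13.2, 21.4 and 10.3 without overlap (-1.47 ± 0.32, adjusted p = 0.00223). Of 60 expansin, xyloglucan and cellulose genes, 2 rose and 2 fell (6.67% called against 1.81% of all tested genes). Of 53 pectin genes 1 rose (1.89% called, near the share of all tested genes). Of the lists above in which limma called no gene lower, the lower calls by edgeR and DESeq2 on the estimated counts were also 0 for the bZIP, LOB, brassinosteroid and gibberellin, ABC and MATE, and sucrose lists. They were 1 by edgeR and 0 by DESeq2 for the cytochrome P450 genes, 0 and 1 for the pathogenesis-related genes, and 1 and 1 for the pectin genes. With 0.561% of all tested genes called lower by limma, the lack of lower calls in lists of these sizes says little about their members.

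**Figure D3:**
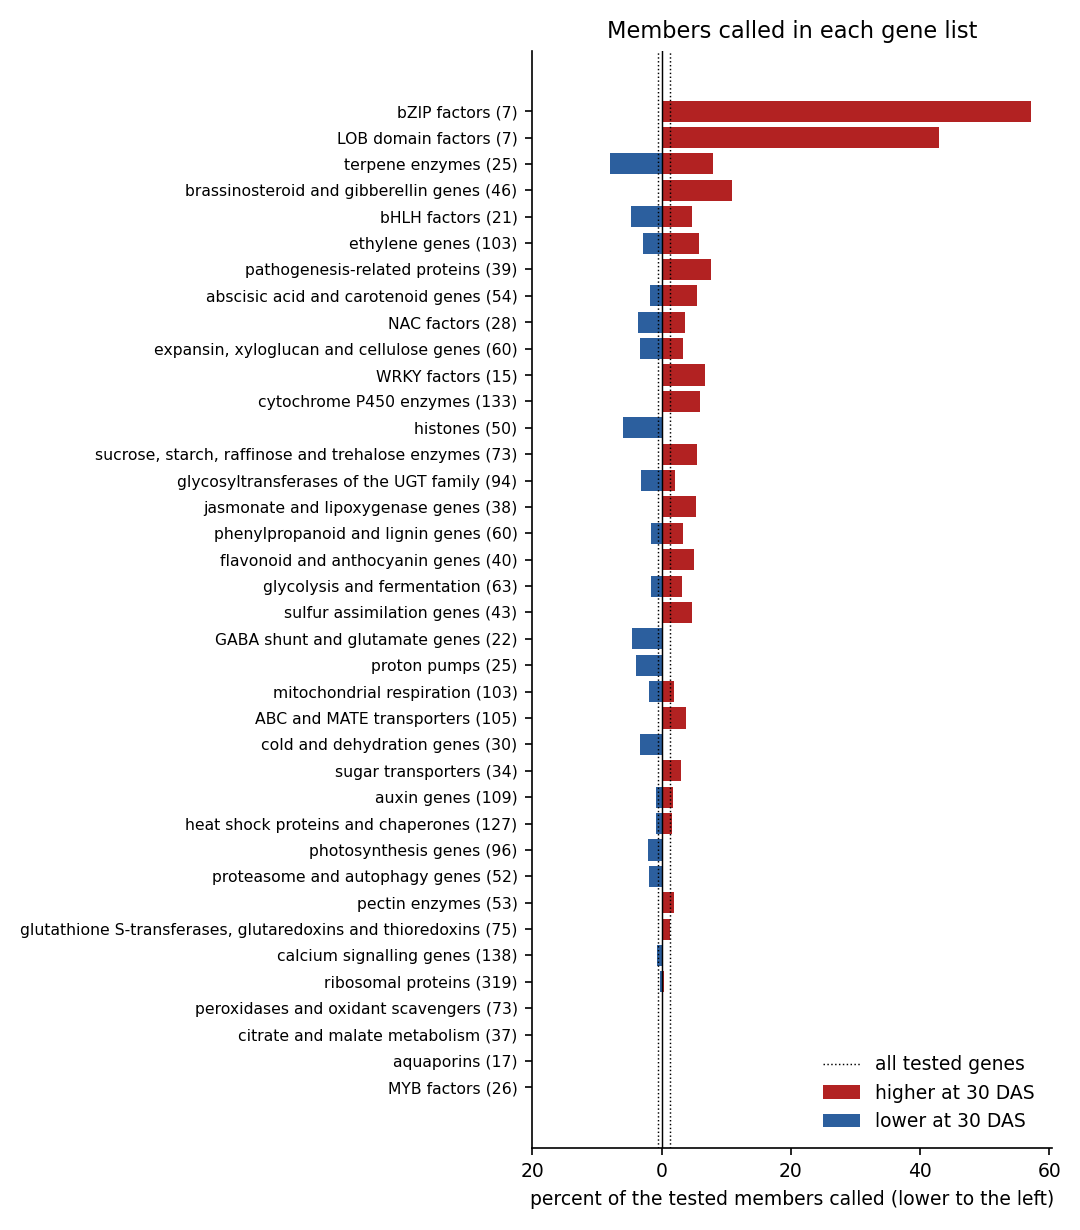
Share of the tested members of each gene list that was called (x axis, percent), with genes higher at 30 DAS to the right in red and genes lower to the left in blue; the number of tested members is in parentheses. Dotted lines mark the share among all tested genes, 1.25% higher and 0.561% lower. The bZIP and LOB lists, of 7 members each, have the largest shares but were added after values had been seen, so their rank is not a result. The brassinosteroid and gibberellin, photosynthesis and sulfur assimilation lists were added in the same way.

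Among the fallen genes, Cs9g16810, a DNA-binding transcription factor annotated with abscisic acid signalling, had 17.2, 6.05 and 21.0 FPKM at 15 DAS and 0.865, 1.15 and 1.71 at 30 DAS. Replicate 2 of 15 DAS was lower than the others of its day but above each library at 30 DAS (-2.67 ± 0.40, adjusted p = 5.65e-05). The same library was the lowest of its day for Cs6g17410, annotated as a metal-binding hydrolase, which had 11.7 FPKM in it and at least 34.2 in the others, and then 4.75, 5.72 and 4.93 (-2.11 ± 0.37, adjusted p = 0.000268). It was also the lowest for Cs6g09400, a methyltransferase-annotated gene at 52.4, 25.3 and 54.8 and then 12.4, 13.2 and 13.4 FPKM (-1.62, adjusted p = 2.15e-05). For Cs4g08670|MSTRG.4790, annotated as a proteasome subunit, the 3 values at 15 DAS were 10.2, 0.0656 and 9.35 FPKM against 0.0597 and a listed 0 in both other libraries at 30 DAS, so its call (-2.29, adjusted p = 0.0434) rested on replicates 1 and 3; the adjusted p was 0.206 without replicate 1 and 0.177 without replicate 3 of 15 DAS, and 0.0824 to 0.0981 when each library of 30 DAS was left out.

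The complex I subunit Cs1g18560, which takes part in electron transport in mitochondria, was at 193, 167 and 155 FPKM at 15 DAS and at 39.6, 45.1 and 59.1 at 30 DAS (-1.83 ± 0.23, adjusted p = 8.15e-06), and Cs1g18570, annotated with the mitochondrial ATP synthase, fell from 14.3 to 4.94 (-1.40, adjusted p = 9.54e-05). Of 103 genes of mitochondrial respiration these 2 fell (median -0.16, 3.88% called in either direction against 1.81% of all tested genes). Another 2 rose, the internal alternative NAD(P)H-ubiquinone oxidoreductase A1 Cs2g06650 from 0.839 to 2.67 FPKM (1.01, adjusted p = 0.0378) and the AAA-ATPase Cs7g01130|MSTRG.8288 from 1.59 to 4.36 (1.05, adjusted p = 0.000122). Both rises were lost without replicate 1 of 15 DAS, at 0.90 with an adjusted p of 0.129 for the former and at 0.96 for the latter, and the former also without any other single library but replicate 3 of 15 DAS (adjusted p from 0.0738 to 0.0971). The soluble inorganic pyrophosphatase Cs8g03160, listed with the proton pumps because it cleaves pyrophosphate but not a pump itself, fell from 17.1 ± 1.85 to 4.10 ± 2.25 FPKM (-1.94, adjusted p = 9.28e-06). It was the 1 called of 25 on that list (4.0%). The fatty acyl-CoA reductase orange1.1t02250, an enzyme of wax alcohol synthesis, fell from 16.2 to 3.49 FPKM (-1.94, adjusted p = 1.55e-05).

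On the lists of histone and nucleosome genes and of photosynthesis genes, limma called genes only as lower. Of 50 genes on the former, which takes in genes annotated with nucleosome assembly or binding, 3 fell (6.0% called against 1.81% of all tested genes). Histone H4 Cs8g18120 fell from 67.9, 61.8 and 53.8 FPKM to 19.0, 22.6 and 18.5 (-1.56 ± 0.13, adjusted p = 4.2e-08). Cs1g25120, annotated with nucleosome and DNA binding, fell from 505, 525 and 477 to 251, 177 and 217 (-1.24 ± 0.12, adjusted p = 3.98e-07). Cs2g17040, a high-mobility-group protein and not a histone, fell from 5.37 to 2.12 (-1.05, adjusted p = 9.35e-05). Its size was -0.90 without replicate 3 of 30 DAS and -0.99 without replicate 2 of 15 DAS. On the histone and nucleosome list, edgeR and DESeq2 each called 1 gene higher and 4 lower. On the photosynthesis list, each called 6 genes lower, and 0 (edgeR) and 1 (DESeq2) were called higher. Over all 16578 tested genes, edgeR called 201 lower and DESeq2 220. By limma, 2 of 96 photosynthesis genes fell (2.08% called, near the 1.81% of all tested genes that limma called). They were the Rubisco activase Cs6g06660 from 36.1 ± 1.91 to 16.4 ± 1.05 FPKM (-1.10, adjusted p = 8.51e-08) and the photosystem I gene Cs2g18170 from 43.4 to 19.8 (-1.11, adjusted p = 0.00151). The latter was at -0.99 without replicate 1 of 15 DAS and -0.99 without replicate 1 of 30 DAS. With the adjusted p alone, 15 of the 50 histone and nucleosome genes and 14 of 96 photosynthesis genes were lower and 4 and 1 were higher, against 10.2% lower and 9.92% higher of all tested genes. Of the 13 green-tissue markers, which are all on the photosynthesis list, 3 were lower and 0 higher by the adjusted p alone (median -0.27), and edgeR and DESeq2 each called 2 lower. The part of green tissue in the fall of photosynthesis genes was not tested.

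Terpene genes were called in both directions, 2 of 25 lower and 2 higher (16.0% called against 1.81% of all tested genes). The limonene synthases, which make the main volatile of citrus oil, fell: Cs3g04170 from 12, 12.2 and 12.2 to 4.81, 5.32 and 3.37 FPKM (-1.27 ± 0.31, adjusted p = 0.00484), and Cs3g04360 from 22.1, 23.2 and 23.9 to 9.13, 10.7 and 7.66 (-1.25 ± 0.30, adjusted p = 0.00488). Both pairs of days were separate, but these genes carry nearly the same description and may share reads. The stearoyl-ACP desaturase Cs3g20840, which makes unsaturated fatty acids and was chosen after its values had been seen, fell from 384 ± 44.8 to 172 ± 50.5 FPKM (-1.18, adjusted p = 0.0113), with an adjusted p of 0.0621 without replicate 2 of 30 DAS.

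Of the 16 genes the study identifies, the trehalose-phosphate phosphatase gene Cs5g09200 was the 1 called, and none of the citrate and anthocyanin genes; of the other 15, 0 had an adjusted p under 0.05 by limma, edgeR or DESeq2, and 0 an unadjusted p under 0.05 by limma. Differences of the 14 that are not trehalose-phosphate phosphatase genes ranged from -0.51 to 0.64. The paper selected its candidates for expression that differed between TBO and BTSO throughout storage, within modules correlated with citrate or anthocyanin content. A change within TBO between the days compared here was not a criterion, so these counts do not test that selection. The PH8 gene Cs1g16150, a P-type proton-pumping ATPase, was at 61.4, 59.3 and 60.9 FPKM and then at 55.5, 50.7 and 45.8 (-0.26 ± 0.25, adjusted p = 0.518). The PEPCK gene Cs3g16700, of phosphoenolpyruvate carboxykinase in the table's description, was at 759, 847 and 772 and then at 1060, 940 and 877 (0.27 ± 0.13, adjusted p = 0.155), so the days did not overlap in either gene, as in 42.6% of tested genes. Of 37 citrate and malate genes, 0 were called by limma, edgeR or DESeq2. With the adjusted p alone, 3 were lower and 0 higher by limma, against 10.2% lower and 9.92% higher of all tested genes. By edgeR 3 and by DESeq2 4 had an adjusted p under 0.05. By limma, 20.1% of all tested genes passed the adjusted p, the threshold at which 3 of the 37 passed. An unadjusted p under 0.05 by limma, a looser threshold, was found for 8. The shares of all tested genes at that threshold and at the adjusted p of edgeR and DESeq2 are not given here.

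The libraries of both days overlapped for chalcone synthase Cs9g11190, F3H Cs1g25280 and the glutathione transferase Cs6g15900. The other F3H gene of the paper, Cs2g04110, was not called, and its values are not given here. Chalcone synthase Cs9g11190, which makes the first flavonoid, was at 856, 1005 and 1349 FPKM at 15 DAS and at 1431, 796 and 976 at 30 DAS (-0.02 ± 0.35, adjusted p = 0.978). F3H Cs1g25280, the flavanone hydroxylase, was at 252, 367 and 449 and then at 445, 274 and 289 (-0.08 ± 0.20, adjusted p = 0.831), and the glutathione transferase Cs6g15900, of the kind that moves anthocyanins to the vacuole, at 527, 781 and 876 and then at 716, 392 and 448 (-0.51 ± 0.32, adjusted p = 0.278). In Cs9g11190, Cs1g25280 and Cs6g15900, replicate 3 of 15 DAS and replicate 1 of 30 DAS were the highest of their days. Over the 20 flavonoid genes with a mean of at least 5 FPKM, replicate 3 was the highest at 15 DAS for 9 and replicate 1 the highest at 30 DAS for 12. The regulator PH4, Cs9g03070, was at 25.8 and 23.5 FPKM (-0.14, adjusted p = 0.731).

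Of 40 flavonoid and anthocyanin genes, 2 rose by limma and by edgeR and none fell (1 fell by DESeq2), both with a small margin. By limma 5.0% of the list were called against 1.81% of all tested genes, and 0 genes without replicate 1 of 30 DAS. The flavonoid 3',5'-hydroxylase Cs2g29510 was at 0.689, 1.01 and 1.5 FPKM and then at 5.94, 2.19 and 2.64 (1.08 ± 0.21, adjusted p = 0.000834), with 0.74 without replicate 1 of 30 DAS and 0.94 without replicate 1 of 15 DAS. Anthocyanidin glucosyltransferase-like Cs9g18820;Cs9g18830 rose from 24.1 to 50.4 (1.05, adjusted p = 0.0055), with 0.90 to 0.98 without replicate 1 of 30 DAS or replicates 2 or 3 of 15 DAS. Flavonoid 3'-hydroxylase-like Cs8g14890 was lower in all 3 libraries, at 64.5, 65.5 and 61.8 and then at 36.8, 37.5 and 33.8 FPKM, a difference of -0.81 that was under the limit on size (adjusted p = 0.000623). The gene orange1.1t04984, of the same description, was likewise at 132, 142 and 122 and then at 77.8, 83.6 and 69.5 (-0.77, adjusted p = 0.00139). The anthocyanidin 3-O-glucosyltransferase 2-like Cs6g11490 was higher in all libraries of the later day, at 48.7, 43.2 and 41.0 and then at 76.2, 90.4 and 79.4 (0.87, adjusted p = 0.000802). Cs8g14890, orange1.1t04984 and Cs6g11490 were not called, and they were chosen after their values had been seen.

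In the same interval in BTSO, 503 genes were called higher (3.03% of tested genes) and 222 lower (1.34%). These means come from other libraries than those of TBO, but all 30 libraries shared the filter and the estimate of the spread. Of the 207 genes that rose in TBO, 196 (94.7%) were also above 0 in BTSO and 117 were called higher there, against 56.3% of all tested genes above 0. Of the 93 that fell in TBO, 84 (90.3%) were below 0 in BTSO and 42 were called lower, against 43.5% of all tested genes below 0. The medians in BTSO were 1.10 for the risen and -0.98 for the fallen genes. For example, Cs2g03270 went from 33.4 to 284 FPKM in BTSO (3.08, adjusted p = 1.07e-05), a change that differed from that of TBO by -0.15 (adjusted p = 0.929), and eRF1-3 Cs8g12090 from 241 to 740 (1.63, adjusted p = 1.05e-10).

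The change itself differed between the varieties for 389 genes by limma's interaction test (2.35%; adjusted p under 0.05), with 108 above 0 (0.651%) and 281 below 0 (1.70%) in TBO minus BTSO. Upper-quartile scaling moved this split to 265 and 272, and leaving out a library moved the count to between 157 and 1460, the latter without replicate 1 of BTSO at 30 DAS. Of the 300 called genes 27 were among them. The change of Cs9g16810 differed between TBO and BTSO by -2.90 on the log2 scale (adjusted p = 0.00912), with BTSO at 2.75 and 3.06 FPKM, and this difference stayed past the threshold in 12 of 12 fits that left out a library (-3.44 to -2.54). The change of Cs2g23660 differed by -1.99 (adjusted p = 0.0152), with BTSO at 12.1 and 9.0 FPKM. Conversely, Cs8g07470, of the bZIP 53 group, rose in both varieties and more in BTSO (from 4.34 to 22.4 FPKM; difference -1.05, adjusted p = 0.0269), which was past the threshold in 4 of 12 such fits. HAT4-like Cs5g08460, a homeobox regulator, rose from 5.61 to 16.7 FPKM in TBO and was at 5.21 and 6.14 in BTSO (1.21, adjusted p = 0.0242; 6 of 12).

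**Figure D4:**
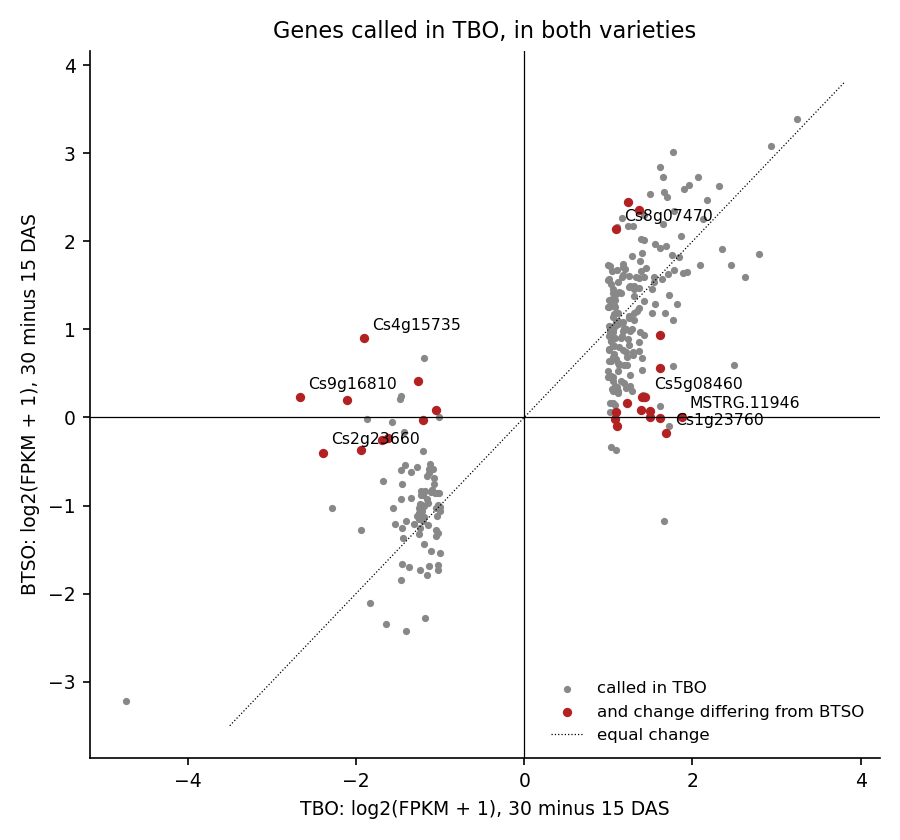
Difference between 30 and 15 DAS on the log2(FPKM + 1) scale in TBO (x axis) and BTSO (y axis) for the 300 genes called in TBO. Red points are the 27 genes whose change differed between varieties by limma's interaction test, and the dotted line marks an equal change; 196 of 207 risen genes are above 0 in BTSO and 84 of 93 fallen genes below 0.

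The levels at the other storage days are given as a description, since neighbouring steps share libraries. Cs2g03270 was at 5.66 FPKM at 0 DAS, 50.8 at 30 DAS and 14.1 at 90 DAS in TBO, and the acid invertase Cs5g09220 at 35.7, 79.3 and 11, so that both had their highest TBO mean at 30 DAS. The bZIP gene Cs3g25230 had means of 12.4, 66.7 and 51.8 FPKM on the same days. Cs2g23660 stood at 9.96 FPKM before storage, 59.5 and 9.66 at both ends of the interval, and 38.6 on day 90. Over the 4 steps of storage in TBO the numbers of genes called higher and lower were 121 and 106 (0 to 15 DAS), 207 and 93 (15 to 30 DAS), 246 and 26 (30 to 60 DAS) and 213 and 259 (60 to 90 DAS).

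**Figure D5:**
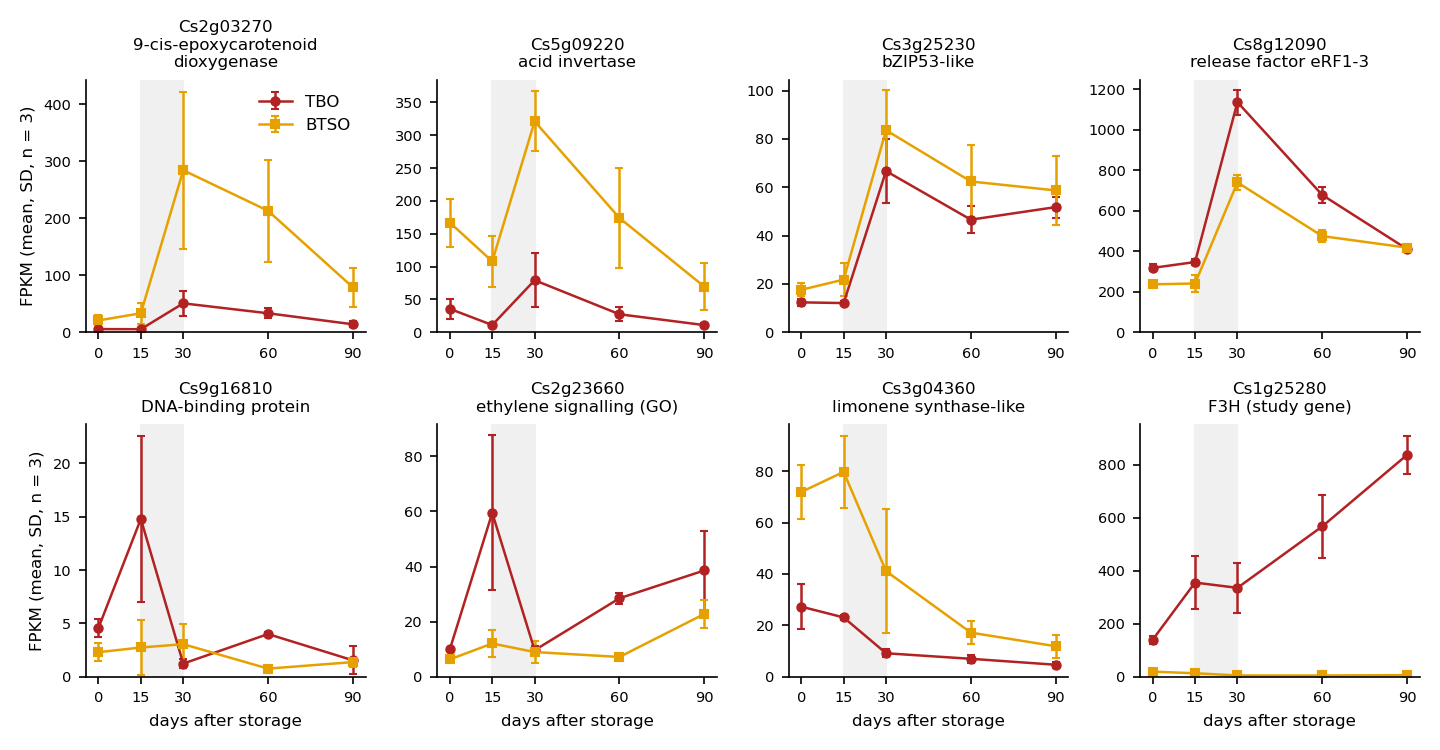
Mean FPKM (y axis, bars are SD, n = 3) of 8 genes against days after storage (x axis) in TBO (red circles) and BTSO (yellow squares), with the interval from 15 to 30 DAS shaded. Cs8g12090 rose in TBO from 347 to 1136 FPKM in the shaded interval, Cs9g16810 fell from 14.8 to 1.24, and F3H Cs1g25280 was at 356 and 336.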

How the data were processed

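Juice sac RNA was sequenced in 30 libraries (2 varieties, 5 storage days, 3 replicates). After discarding ribosomal and poor-quality reads, the authors merged the transcript assemblies of all libraries and deposited FPKM values and estimated counts per gene in one table, without pooling replicates. The submitters' processing notes name HISAT2 2.0, StringTie 1.3.0, Bowtie 0.12.2 and a mouse build; the build of the Citrus coordinates is not given in the sources used here. The deposited estimated counts are whole numbers whose totals exceed the mapped reads, so they are not read numbers.

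The limma test used log2(FPKM + 1) of genes that reached 1 FPKM in 3 or more libraries, with 10 group means, a variance trend and all 30 libraries, and Benjamini-Hochberg adjustment. limma was checked on simulated data. Named genes are the 12 largest changes per direction among called, non-overlapping genes with a description and a mean FPKM of at least 5. Also named are the genes the study identifies, trehalose-phosphate phosphatase genes, up to 4 called genes per list and the 6 largest differences between varieties. Members and lists were chosen with earlier results of these data known. Replicate numbers were not used to pair the libraries in the main fit, and 3 libraries per day cannot settle whether they were paired. Alternatives included other pseudocounts, filters and scalings, a replicate block, left-out libraries, and edgeR and DESeq2 on the estimated counts.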

Additional observations from a re-analysis of the deposited data

Results flagged for a closer look

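The change from 15 to 30 DAS differed between TBO and BTSO for 389 genes by limma's interaction test with Benjamini-Hochberg adjustment (adjusted p under 0.05). Among the genes named, the difference (change in TBO minus change in BTSO, log2 scale) was below 0 for Cs9g16810 (-2.90, adjusted p = 0.00912), Cs4g15735 (-2.80, 0.0312), Cs6g17410 (-2.31, 0.0197), Cs2g23660 (-1.99, 0.0152), orange1.1t02250 (-1.57, 0.0246), Cs3g09000 (-1.44, 0.017), Cs6g09400 (-1.38, 0.0215), NAC 62-like Cs5g16180 (-1.16, 0.0246) and bZIP 53 Cs8g07470 (-1.05, 0.0269). It was above 0 for Cs1g23760 (1.87, adjusted p = 0.0353), MSTRG.11946 (1.85, 0.00209), photosystem I subunit V Cs4g07650 (1.35, 0.0108), HAT4-like Cs5g08460 (1.21, 0.0242), F3H Cs1g25280 (1.17, 0.0317) and Cs8g16640, annotated as a water channel (1.15, 0.0263). Of 12 fits that left out a library, the difference stayed past the threshold in all 12 for Cs9g16810, Cs4g07650 and MSTRG.11946, in 11 for Cs2g23660 and Cs3g09000, in 9 for Cs5g16180, in 8 for Cs6g17410, orange1.1t02250 and Cs6g09400, in 6 for Cs1g25280, Cs8g16640 and Cs5g08460, in 4 for Cs4g15735 and Cs8g07470 and in 3 for Cs1g23760. By edgeR the adjusted p missed 0.05 for MSTRG.11946, a locus with no description (0.636, and 0.433 by DESeq2), orange1.1t02250 (0.0883), Cs8g07470 (0.0707) and Cs1g23760 (0.0561). F3H, the photosystem gene and the water channel gene were not called within TBO: in BTSO they fell from 13.5 to 5.19, from 21.1 to 9.66 and from 362 to 136 FPKM.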

How the results depend on the processing

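The 300 calls (207 higher, 93 lower) became 654 (458, 196) with a pseudocount of 0.1, 698 (497, 201) by edgeR, 776 (556, 220) by DESeq2 and 3330 (1644, 1686) with no limit on the log2 difference; 293, 285 and 286 of the 300 genes were called in the same direction by the first 3. With each library left out the counts were 281 to 323 in all, 188 to 234 higher and 77 to 107 lower. The 389 differing changes (108 above 0, 281 below 0) became 827 by DESeq2 (438 above 0). Those above 0 became 265 with upper-quartile scaling, 213 with quantile normalization and 199 by edgeR. Without 1 library the differing changes ranged from 157 to 1460, those above 0 from 34 to 272 and those below 0 from 119 to 1188; the highest values were without replicate 1 of BTSO at 30 DAS. The cause was not tested. Of 101 named genes that were called, 62 kept their call in every alternative in which they were tested, and 0 reversed. A filter of at least 5 FPKM in at least 3 libraries, which leaves out genes of low expression, kept 261 of the 300 calls. Another 22 named genes were not called, and 0 of these were called in an alternative that kept the limit on the log2 difference. With no such limit, those with an adjusted p under 0.05, such as Cs8g14890, pass. Same-numbered libraries deviated together with r of -0.06, 0.15 and 0.13 for replicates 1, 2 and 3. Replicates 2 and 3 correlated best with their own number, and replicate 1 did not. A replicate block gave 300 calls and 365 differing changes over all libraries, and 272 calls in the 6 libraries. The 3 libraries per day limit the precision.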

Other observations

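MSTRG.2658, a locus with no description, had the largest fall of the 300 called genes and was chosen after its values had been seen. It was at 26.1, 24.8 and 25.5 FPKM at 15 DAS and listed at 0 in all 3 libraries at 30 DAS (adjusted p = 0.0164 by limma). Apart from the called genes, 10 genes differed by more than 2 on the log2 scale without being called, and 6 of these were listed at 0 in at least 1 of the 6 libraries. Cs7g24050|MSTRG.9528, for instance, was at 729 and 3628 FPKM in replicates 1 and 3 of 15 DAS and listed at 0 in replicate 2.

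In sulfur assimilation, 2 of 43 tested genes rose (1.25% of all tested genes): Cs2g02980, annotated with adenylyl-sulfate reductase activity, from 9.69 to 21.1 FPKM (1.04, adjusted p = 0.00619; 0.92 without replicate 1 of 30 DAS), and the sulfate transporter-annotated Cs5g30850 from 12.5 to 28.2 (1.11, adjusted p = 0.0178; adjusted p = 0.0839 without replicate 1 of 15 DAS and 0.0851 without replicate 1 of 30 DAS).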
